A study of Mus musculus with 6 samples.

Results

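Rasd1 and 9 genes of the corticosteroid response were followed in the hippocampus of 6 mice. Rasd1 encodes a small Ras-like GTPase that was first found as a transcript induced by the synthetic glucocorticoid dexamethasone, and it lies in the segment duplicated in these mice. The other 9 genes lie outside that segment, 8 on autosomes other than 11 and Tsc22d3 on the X chromosome. They are Nr3c1 and Nr3c2, which encode the glucocorticoid and the mineralocorticoid receptor, and 7 genes induced by corticosteroids, namely Fkbp5, Sgk1, Tsc22d3, Pdk4, Zbtb16, Errfi1 and Sult1a1. Members were taken by symbol, as probe sets annotated to exactly 1 of the 10 symbols. All 10 genes were measured, by 23 probe sets among 45037, and the brightest probe set of a gene, averaged over the arrays, stood for it, so that they are 10 of 18193 genes.

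The study set 3 Dp(11)17/+ mice against 3 +/+ mice, 1 Affymetrix array per mouse. Dp(11)17/+ mice carry, on one chromosome 11, an engineered duplication of the segment matching the human Potocki-Lupski region, so that genes of the segment are present at 1.5 times the usual copy number. Both groups were labelled as males of 11 to 14 weeks on the C57BL/6-Tyr c-Brd background, and no hormone treatment is named for any mouse. Hippocampus is missing from the organs that the extraction protocol names, and pooled RNA is mentioned for labelling, although each array has 1 named individual. The labels name no litter or batch, so neither could be examined. The leading numbers of the sample titles, whose meaning is not stated, were all higher in Dp(11)17/+ than in +/+ mice. A batch that followed genotype could not be told apart from it.

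Corticosterone, the main glucocorticoid of mice, enters neurons and binds both receptors, which then act in the nucleus as transcription factors at hormone response elements. The mineralocorticoid receptor binds the hormone with high affinity and is abundant in hippocampal neurons, and the glucocorticoid receptor is the lower-affinity partner found in most cell types. Fkbp5 encodes a chaperone that lowers hormone binding by the glucocorticoid receptor, so that its induction closes a feedback loop. Sgk1 encodes a kinase that regulates ion transport, and Tsc22d3 encodes the leucine zipper protein GILZ.

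Some arrays stood apart from the rest. In Dp(11)17/+ replicate 1, labelled male, Xist had a log2 signal of 9.13, against 3.06 to 3.69 in the other mice, and the Y-linked gene Kdm5d had 2.47 there, against 4.70 to 5.06. Mean log2 signals over the mice were 5.71 to 7.59 for 6 CA1 markers and 4.54 to 7.57 for 7 dentate granule cell markers. In Dp(11)17/+ replicate 3 the dentate markers Tdo2, Dsp and Prox1 had log2 signals of 2.78, 3.33 and 3.88, close to or below the median of all probe sets on an array. Expression of these field markers differed between mice, as the heat map of deviations shows. The dentate mean lay at -1.04, 0.77 and -2.26 from the +/+ mean in Dp(11)17/+ replicates 1, 2 and 3, and between -0.13 and 0.16 in +/+ mice. The CA1 mean lay at -0.68, 0.40 and -1.48 in the same Dp(11)17/+ mice, against -0.08 to 0.14 in +/+ mice. Means over 10 striatal markers were 1.199 and 2.02 above the +/+ mean in Dp(11)17/+ replicates 1 and 3, and a mean over 8 thalamic markers was 2.29 above it in Dp(11)17/+ replicate 3. Choroid plexus markers, 6 in number, were high in Dp(11)17/+ replicates 1 and 3 and +/+ replicate 1 (1.15, 1.29 and 2.21 above the +/+ mean) and low in Dp(11)17/+ replicate 2 and +/+ replicates 2 and 3 (-0.99, -1.15 and -1.07). In tissue of mixed cells, fewer cells of a type, less RNA per cell and a different share of neighbouring regions in the dissected piece cannot be told apart. For the 10 genes and the main list genes, values are also given for Dp(11)17/+ replicate 2 alone against +/+ mice, with no test. This comparison does not remove the differences in markers. The dentate and CA1 means of that mouse, 0.77 and 0.40, lay above those of all +/+ mice. The +/+ mean also includes +/+ replicate 1, with choroid plexus markers at 2.21.

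In the moderated test of limma adjusted over all 45037 probe sets, 0 of the 23 probe sets of these genes passed, against 0% of all probe sets, and all adjusted p were 0.994 or more. At an unadjusted p under 0.05, 1 of the 10 genes, Sult1a1, was counted, where 3.17% of all genes were. The count was 1 higher and 0 lower, beside 2.01% of all genes lower at that level. Of the 23 probe sets, 2 had an unadjusted p under 0.05, both higher in Dp(11)17/+ mice, beside 2.82% of all probe sets in either direction and 1.44% higher. In 0 of the 23 did all Dp(11)17/+ mice lie below all +/+ mice, beside 4.61% of all probe sets.

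Other settings moved the count of genes at an unadjusted p under 0.05 together with its background. It was 0 of 10 with the plain equal-variance statistic (3.78% of all genes) and 0 of those still tested with dim probe sets left out (2.88%). It was 1 with quantile normalization again (3.39%) and with array weights (4.52%), where the gene was Sult1a1. Errfi1 joined Sult1a1, to make 2, with medians centred (3.31%) and with an intensity trend and robust prior (2.65%). With a mouse left out, it was 0, 4 and 1 without Dp(11)17/+ replicates 1, 2 and 3 (2.64%, 8.15% and 2.15%), and 3, 2 and 0 without +/+ replicates 1, 2 and 3 (4.93%, 2.79% and 2.26%). Those 4 were Sult1a1, Nr3c2, Tsc22d3 and Errfi1, and those 3 were Sgk1, Tsc22d3 and Sult1a1. Of the genes, 6 had a higher mean in Dp(11)17/+ mice and 4 a lower one, with a median log2 fold change of 0.13, beside 41.7% of all genes higher and a median of -0.02. Several of the genes varied widely between mice. Among 7104 genes with a mean log2 signal of 6 or more, 97.8% had a smaller range over the 6 mice than Rasd1, 99.8% a smaller one than Nr3c2, 97.5% than Sgk1 and 96.4% than Tsc22d3.

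**Figure D1:**
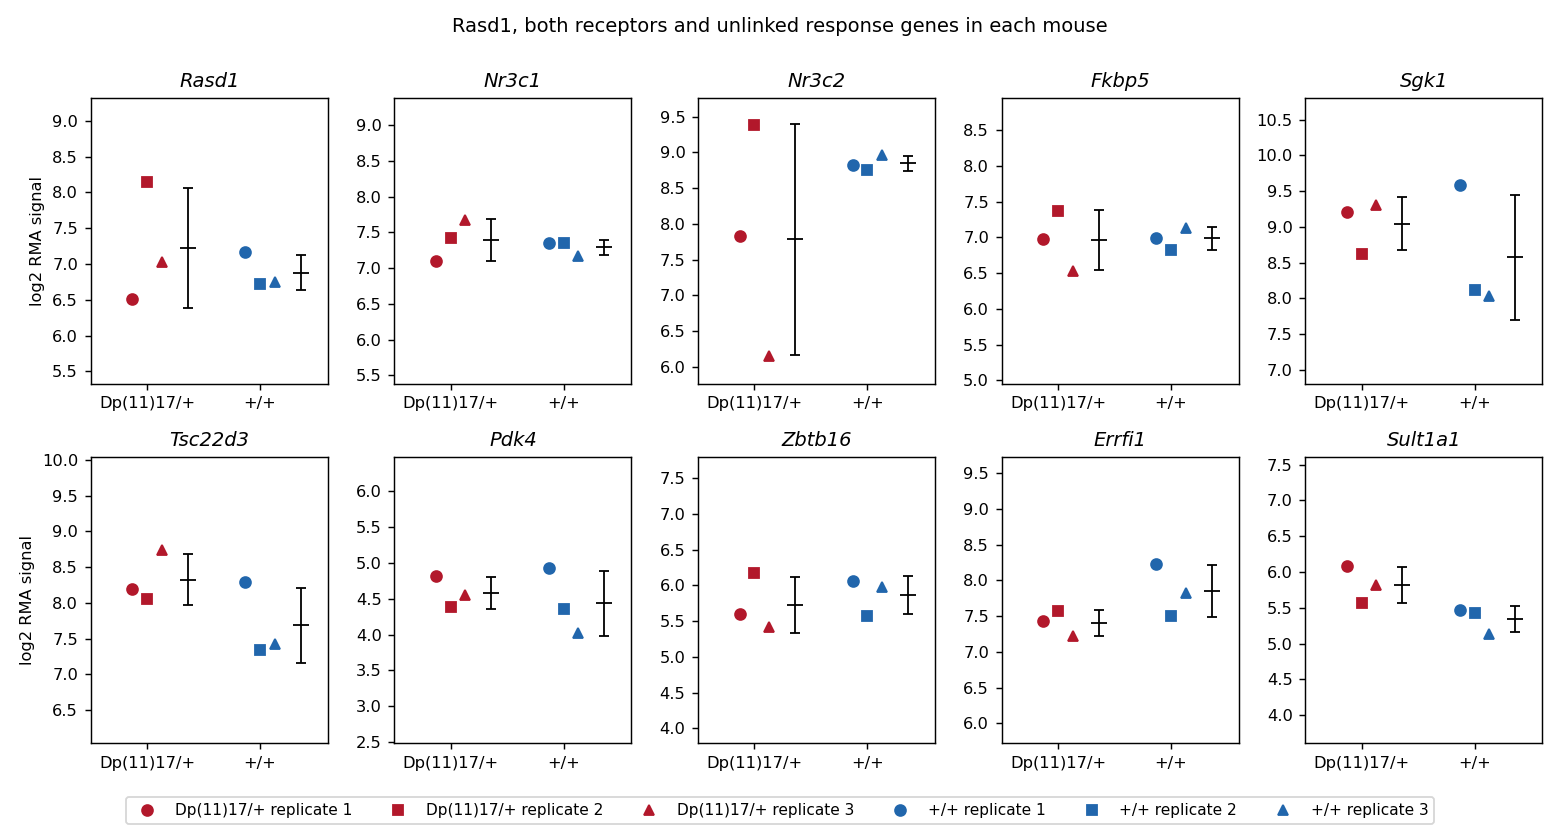
Log2 RMA signal of the 10 genes in each mouse, Dp(11)17/+ left (red) and +/+ right (blue), with the marker shape giving the replicate and the black bars the group mean and SD (n = 3). Every panel spans 4 log2 units; Rasd1 and Nr3c2 are spread over the Dp(11)17/+ mice, Sgk1 and Tsc22d3 over the +/+ mice, and Sult1a1 alone has all Dp(11)17/+ points above all +/+ points.

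Rasd1, the duplicated gene of the group, had log2 signals of 6.51, 8.15 and 7.03 in Dp(11)17/+ replicates 1, 2 and 3, against 7.16, 6.72 and 6.75 in the +/+ mice. The highest and the lowest value of all 6 mice were both in Dp(11)17/+ mice, so the groups overlapped. The means were 7.23 ± 0.84 in Dp(11)17/+ and 6.88 ± 0.25 in +/+ mice (SD, n = 3 each), a log2 fold change of 0.35 (SE 0.38, 1.27-fold, limma unadjusted p = 0.396, adjusted p = 0.994). Its 95% confidence interval, -0.56 to 1.26, held both 0 and 0.58, the log2 value of the copy ratio. The direction rested on 1 mouse. Without Dp(11)17/+ replicate 2 the log2 fold change was -0.11, without Dp(11)17/+ replicate 1 it was 0.71, and Dp(11)17/+ replicate 2 alone lay 1.27 above the +/+ mean. With array weights, which gave that mouse a weight of 0.68 and Dp(11)17/+ replicate 1 one of 1.98, it was 0.060 (unadjusted p = 0.876).

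Its neighbours in the duplicated segment were steadier in the same mice. The segment was taken as the genes from Cops3 to Rnf112, both included. In gene order Rasd1 lies between Med9, a subunit of the Mediator complex, and Pemt, an enzyme of phosphatidylcholine synthesis, close to Rai1 and Nt5m. Med9 had log2 signals of 6.92, 7.25 and 7.11 in Dp(11)17/+ mice, against 6.39, 6.71 and 6.53 in +/+ mice, a log2 fold change of 0.55 (SE 0.12). Nt5m, a mitochondrial nucleotidase, differed by 0.40, Rai1, a nuclear regulator of transcription, by 0.39, and Pemt, with a mean log2 signal under 6, by 0.14. Over 19 other genes of the segment with a mean log2 signal of 6 or more, the mean lay 0.42, 0.44 and 0.50 above the +/+ mean in Dp(11)17/+ replicates 1, 2 and 3. In 17 of these 19 genes all Dp(11)17/+ mice lay above all +/+ mice, as did 2.7% of all genes. The exceptions were the end genes, Cops3 (-0.17, all Dp(11)17/+ mice below all +/+ mice) and Rnf112 (0.23, groups overlapping). Both had a lower log2 fold change than Rasd1. Rasd1 ranked 17 of 20 by log2 fold change, between a lowest value of -0.17 and a highest of 0.76 among the other 19. Its range over the 6 mice, 1.64 on the log2 scale, was wider than that of each of the 19, of which the widest was 1.03.

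Set against those 19 genes in the same array, Rasd1 lay at -1.35, 0.27 and -0.91 in Dp(11)17/+ replicates 1, 2 and 3, and at -0.25, -0.70 and -0.71 in +/+ mice. The means of this difference were -0.66 ± 0.84 in Dp(11)17/+ and -0.56 ± 0.26 in +/+ mice (SD, n = 3 each). They differed by -0.10, less than the spread between mice (exact two-sided permutation test over 20 labelings, p = 0.8, where the smallest p possible is 0.1). The sign turned without Dp(11)17/+ replicate 1 (0.24), Dp(11)17/+ replicate 3 (0.019) or +/+ replicate 1 (0.046), and with Dp(11)17/+ replicate 2 alone the difference was 0.83. In that mouse the dentate and CA1 marker means were the highest of the 6, at 0.77 and 0.40. Dp(11)17/+ replicate 1, with the lowest Rasd1, had dentate and CA1 means of -1.04 and -0.68, while Dp(11)17/+ replicate 3, with the lowest of both means, had the third highest Rasd1. The part of these markers in the Rasd1 values was not tested.

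**Figure D2:**
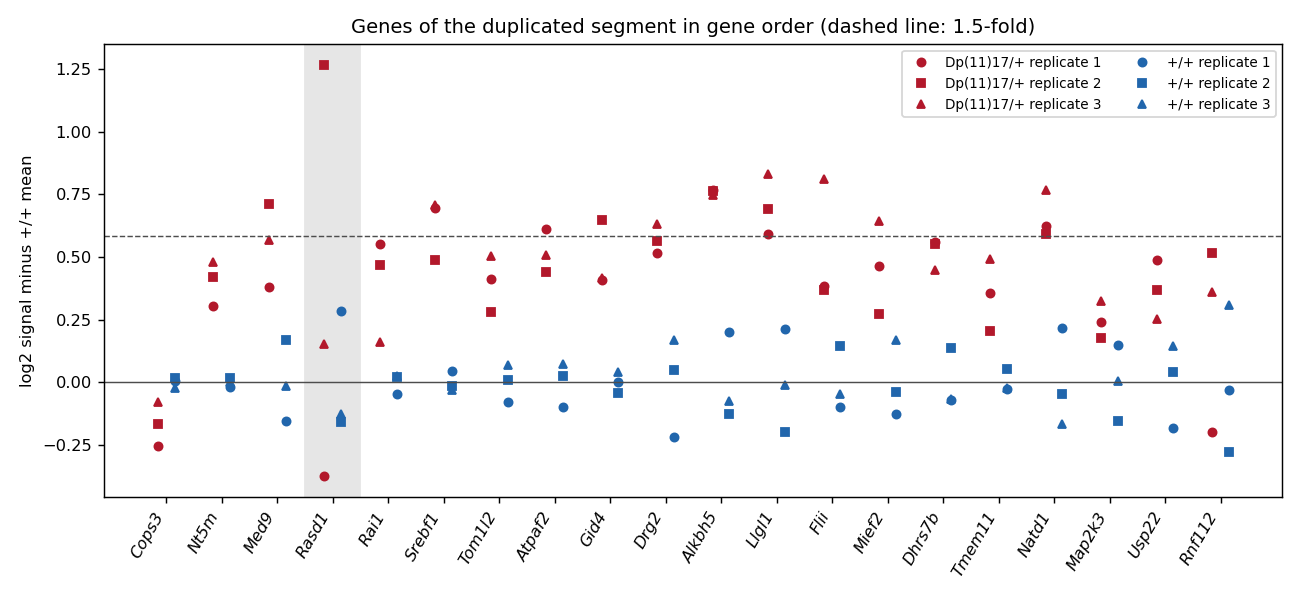
Log2 signal minus the +/+ mean for Rasd1 (grey band) and 19 other genes of the duplicated segment, in gene order, with Dp(11)17/+ mice in red left of +/+ mice in blue and 1 point per mouse. Rasd1 spans 1.64 log2 units, from -0.37 to 1.27, while the widest range among the others is 1.03.

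Genes were also ranked by how closely they followed Rasd1 over the 6 mice, among 7103 other genes with a mean log2 signal of 6 or more. Pearson's r was highest for Selenom (0.983), which encodes a selenoprotein, then Nfyc (0.979), a subunit of the CCAAT-binding factor NF-Y, Papss1 (0.974), a sulfate donor synthase, Vps36 (0.974), a subunit of the ESCRT-II complex, and Ric1 (0.973). These are the top of a long ranking over 6 points that share their arrays, and Dp(11)17/+ replicate 2 is the highest point in all 5. Among the corticosteroid genes bright enough to be ranked, Fkbp5 stood at rank 848 and Nr3c1 at rank 1213. Zbtb16, Pdk4 and Sult1a1, with means under 6, were not ranked. Of these, Zbtb16 had a higher r with Rasd1 (0.64) than Fkbp5 had (0.54).

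The receptors differed in how steady they were. Nr3c1, the glucocorticoid receptor gene, had log2 signals of 7.09, 7.42 and 7.67 in Dp(11)17/+ mice, against 7.34, 7.35 and 7.17 in +/+ mice. The +/+ values lay within the span of the Dp(11)17/+ values, and the log2 fold change was 0.11 (SE 0.15, 95% confidence interval -0.25 to 0.46, limma unadjusted p = 0.504). It had 6 probe sets, whose log2 fold changes were all between 0.03 and 0.24, with a second bright one at 0.24 (SE 0.24). The others were dim, with mean log2 signals of 2.94 to 4.91. Dp(11)17/+ replicate 2 alone lay 0.13 above the +/+ mean. The sign of the representative turned without Dp(11)17/+ replicate 3 (-0.032).

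Nr3c2, the mineralocorticoid receptor gene, had log2 signals of 7.83, 9.38 and 6.15 in Dp(11)17/+ replicates 1, 2 and 3, against 8.82, 8.76 and 8.96 in +/+ mice. The +/+ mice were nearly equal, whereas Dp(11)17/+ replicate 2 was above all of them and Dp(11)17/+ replicates 1 and 3 below all of them. The means were 7.79 ± 1.62 in Dp(11)17/+ and 8.85 ± 0.10 in +/+ mice (SD, n = 3 each), a log2 fold change of -1.06 (SE 0.70, 0.479-fold, limma unadjusted p = 0.175, adjusted p = 0.994). It was -1.86 without Dp(11)17/+ replicate 2 (unadjusted p = 0.00566, adjusted p = 0.593, in a fit where 8.15% of genes had an unadjusted p under 0.05). Without Dp(11)17/+ replicate 3 it was -0.24, and Dp(11)17/+ replicate 2 alone lay 0.53 above the +/+ mean. Hippocampal neurons carry this receptor at high levels, and its order over the Dp(11)17/+ mice, replicate 2 above 1 above 3, was that of the CA1 means (0.40, -0.68 and -1.48) and of the dentate means (0.77, -1.04 and -2.26). Their part in the difference was not tested.

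The genes closest to Nr3c2 over the 6 mice, among 7103 others, were Eif4b (r = 0.9998), a translation initiation factor, Rasa1 (0.998), a Ras GTPase-activating protein, Gria1 (0.996), an AMPA receptor subunit, Prdm8 (0.995), a transcriptional regulator, and Gabra5 (0.994), a GABA-A receptor subunit enriched in the hippocampus. Gabra5, for one, had log2 signals of 6.99, 8.03 and 5.53 in Dp(11)17/+ mice and 7.64, 7.71 and 7.97 in +/+ mice. Rasd1 stood at rank 2269 in this ranking.

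As a measure of the balance between the receptors, the log2 signal of Nr3c1 was subtracted from that of Nr3c2 in each array. This difference of 2 probe sets is no ratio of amounts and was compared between genotypes alone. It was 0.74, 1.96 and -1.52 in Dp(11)17/+ mice, against 1.48, 1.41 and 1.80 in +/+ mice. The group means, 0.39 ± 1.77 and 1.56 ± 0.21 (SD, n = 3 each), differed by -1.17, with p = 0.4 in the exact two-sided permutation test and 0.40 as the difference with Dp(11)17/+ replicate 2 alone.

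**Figure D3:**
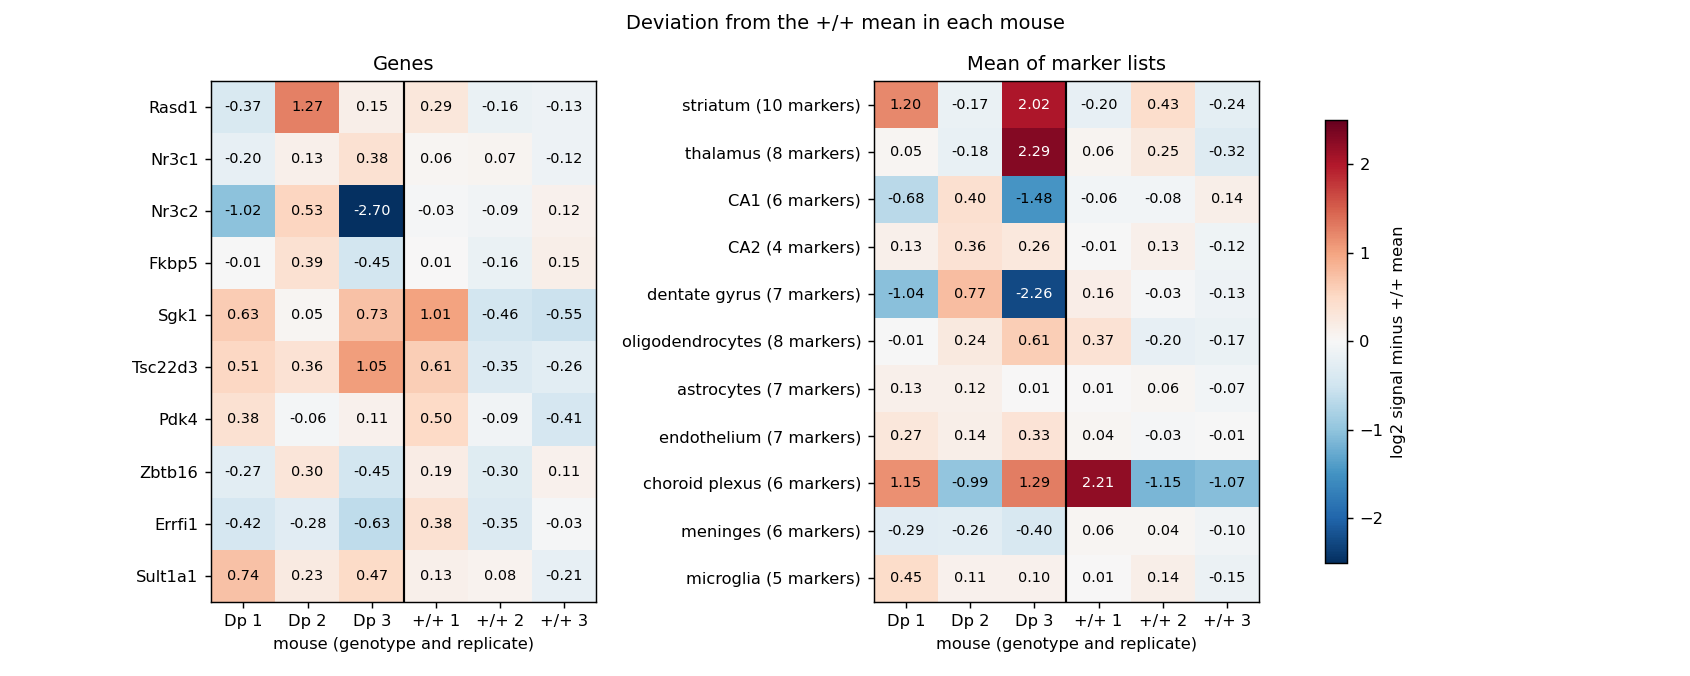
Deviation of each mouse from the +/+ mean on the log2 scale, for the 10 genes (left) and for the mean of 11 marker lists of brain regions and cell types (right), with Dp(11)17/+ mice (Dp) left of +/+ mice. Nr3c2 runs with the CA1 and dentate lists (-2.70, -1.48 and -2.26 in Dp(11)17/+ replicate 3), while Sgk1 is highest in the 3 mice with high choroid plexus markers.

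Among the unlinked response genes, 4 of 7 had a higher mean in Dp(11)17/+ mice and 3 a lower one, with a median log2 fold change of 0.14. Over all genes 41.7% were higher, with a median of -0.02. The patterns of the 7 over the mice differed, and are given in turn.

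Sgk1 had log2 signals of 9.21, 8.62 and 9.30 in Dp(11)17/+ mice, against 9.59, 8.11 and 8.03 in +/+ mice. The highest value was in +/+ replicate 1, and the other +/+ mice were the lowest of the 6. The means were 9.04 ± 0.37 in Dp(11)17/+ and 8.58 ± 0.88 in +/+ mice (SD, n = 3 each), with a log2 fold change of 0.47 (SE 0.42, 1.38-fold, limma unadjusted p = 0.299). Without +/+ replicate 1 it was 0.97 (limma unadjusted p = 0.0034, adjusted p = 0.7, in a fit where 4.93% of genes had an unadjusted p under 0.05). Dp(11)17/+ replicate 2 alone lay 0.05 above the +/+ mean, which +/+ replicate 1 raised. It lay above +/+ replicates 2 and 3. The 3 mice with the highest Sgk1 were the 3 with high choroid plexus markers. Of the choroid plexus markers, Folr1, a folate receptor, had log2 signals of 6.59, 3.55 and 6.28 in Dp(11)17/+ mice and 7.49, 3.8004 and 4.05 in +/+ mice, and Ttr, the transthyretin gene, had 12.99, 10.8 and 12.96 in Dp(11)17/+ mice and 13.1, 8.54 and 9.89 in +/+ mice. The mean over 8 oligodendrocyte markers was highest in Dp(11)17/+ replicate 3 and +/+ replicate 1, at 0.61 and 0.37 over the +/+ mean, but was -0.01 in Dp(11)17/+ replicate 1, with high Sgk1, and 0.24 in Dp(11)17/+ replicate 2, with lower Sgk1. Their part in the Sgk1 values was not tested.

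Tsc22d3, on the X chromosome, had log2 signals of 8.19, 8.05 and 8.73 in Dp(11)17/+ mice, against 8.29, 7.34 and 7.42 in +/+ mice. Again +/+ replicate 1 lay among the Dp(11)17/+ mice, and the other +/+ mice were lowest. The log2 fold change was 0.64 (SE 0.29, 1.56-fold, limma unadjusted p = 0.0588, adjusted p = 0.994), with 0.95 without +/+ replicate 1, 0.71 without Dp(11)17/+ replicate 1 and 0.36 for Dp(11)17/+ replicate 2 alone. A second bright probe set gave 7.13, 7.05 and 7.60 in Dp(11)17/+ mice and 7.02, 6.42 and 6.34 in +/+ mice. There all Dp(11)17/+ mice lay above all +/+ mice, as at 3.41% of all probe sets, by a gap of a few hundredths, with a log2 fold change of 0.67 (SE 0.22, unadjusted p = 0.0178, adjusted p = 0.994). Its unadjusted p was 0.0558 without Dp(11)17/+ replicate 3 and 0.0620 or 0.0618 without +/+ replicate 2 or 3. The dimmer probe sets gave -0.17 and -0.05, so the probe sets of Tsc22d3 disagreed in sign.

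Sult1a1, which encodes a cytosolic sulfotransferase, was the 1 gene with all Dp(11)17/+ mice above all +/+ mice, as were 2.7% of all genes. Its log2 signals were 6.08, 5.57 and 5.81 in Dp(11)17/+ mice, against 5.47, 5.42 and 5.13 in +/+ mice, with a mean over the 6 arrays of 5.58, below the level of 6 used here to call a probe set bright. The gap between the groups was small, and Dp(11)17/+ replicate 2 was the mouse nearest to it. The means were 5.82 ± 0.26 in Dp(11)17/+ and 5.34 ± 0.18 in +/+ mice (SD, n = 3 each), a log2 fold change of 0.48 (SE 0.15, 1.39-fold, limma unadjusted p = 0.0165, adjusted p = 0.994). With each mouse left out the log2 fold change stayed between 0.35 and 0.61, and the unadjusted p was 0.0538 without Dp(11)17/+ replicate 1 and 0.0546 without +/+ replicate 3. Dp(11)17/+ replicate 2 alone lay 0.23 above the +/+ mean.

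The promoter windows of these response genes are shown because both receptors bind the same element, an inverted repeat of AGAACA with 3 bases between the copies. RefSeq windows of 300 bases ran from 250 bases before to 50 after an annotated start in GRCm38.p6. Those of 7 of the 10 genes were used, 15 windows in all. None was held for Rasd1 and Zbtb16, and Nr3c1 was left out of the search, so the counts out of 15 do not cover these genes. The windows were searched on both strands for the half-site AGAACA, which reads TGTTCT on the other strand, and for the full palindrome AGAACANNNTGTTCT, which contains a half-site of each orientation. The half-site occurred in 5 of the 15 windows, in Sgk1, Tsc22d3 and Sult1a1, and in 19.0% of 32851 windows of all genes. The full palindrome occurred in 1 of the 15, of Sgk1, and in 3 windows of all genes (0.00913%), the others being those of Acnat2 and Gm35041. The sequences run 5′ to 3′ on the strand of the gene, with the half-sites in capitals.
Sgk1 window chr10:21993640-21993939, plus strand: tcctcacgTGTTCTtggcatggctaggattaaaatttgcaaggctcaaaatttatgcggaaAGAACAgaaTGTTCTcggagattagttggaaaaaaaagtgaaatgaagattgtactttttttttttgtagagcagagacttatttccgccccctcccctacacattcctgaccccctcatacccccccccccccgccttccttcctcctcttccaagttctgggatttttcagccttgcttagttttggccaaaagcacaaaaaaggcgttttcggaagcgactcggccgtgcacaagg
Tsc22d3 window chrX:140600473-140600772, minus strand: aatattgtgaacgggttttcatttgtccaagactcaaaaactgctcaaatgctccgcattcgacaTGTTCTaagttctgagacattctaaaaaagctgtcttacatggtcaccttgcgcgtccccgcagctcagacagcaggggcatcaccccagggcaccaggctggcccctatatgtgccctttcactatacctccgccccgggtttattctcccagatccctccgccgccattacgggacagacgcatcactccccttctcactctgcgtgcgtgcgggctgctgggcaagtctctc
Sult1a1 window chr7:126676369-126676668, minus strand: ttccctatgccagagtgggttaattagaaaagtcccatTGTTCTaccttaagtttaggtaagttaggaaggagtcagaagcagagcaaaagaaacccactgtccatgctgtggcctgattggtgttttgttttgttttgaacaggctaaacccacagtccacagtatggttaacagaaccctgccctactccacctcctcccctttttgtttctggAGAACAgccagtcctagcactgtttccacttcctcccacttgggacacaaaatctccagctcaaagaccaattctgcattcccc
In the Sgk1 window the palindrome begins 189 bases before the annotated start, and a further half-site begins 242 bases before it. The half-site of Tsc22d3 begins 185 bases before the start, and those of Sult1a1 begin 212 and 34 bases before it. Sgk1 had 6 annotated windows, of which 3 held a half-site, and the array has 1 probe set for Sgk1, so its starts could not be followed separately. A match of letters is a description and no binding was measured here.

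Fkbp5 and Zbtb16, each at its brightest probe set, had their extremes in the same Dp(11)17/+ mice as Nr3c2. By correlation with Nr3c2, however, Fkbp5 stood at rank 504 of 7103 genes, and the correlation of neither gene passed adjustment. Fkbp5 had log2 signals of 6.98, 7.37 and 6.53 in Dp(11)17/+ mice, against 6.99, 6.82 and 7.14 in +/+ mice. Dp(11)17/+ replicates 2 and 3 were the highest and the lowest of the 6, and the log2 fold change was -0.02 (SE 0.21, 95% confidence interval -0.51 to 0.46). Dp(11)17/+ replicate 2 alone lay 0.39 above the +/+ mean. The sign turned without Dp(11)17/+ replicate 3 (0.19) and without +/+ replicate 3 (0.05), and its dimmer probe sets gave -0.17 and -0.10. Zbtb16, which encodes the zinc finger repressor PLZF, had 5.60, 6.17 and 5.41 in Dp(11)17/+ mice, against 6.06, 5.57 and 5.97 in +/+ mice, a log2 fold change of -0.14 (SE 0.22). Here too Dp(11)17/+ replicates 2 and 3 held the extremes. The mean of this probe set over the 6 arrays, 5.80, was below 6. A second probe set of Zbtb16, almost as bright, had its lowest value in +/+ replicate 3 (5.22, against 5.45 in Dp(11)17/+ replicate 3). It gave a log2 fold change of 0.19 (SE 0.28), and the dimmest probe set -0.05, so the direction of Zbtb16 was not settled. At the brightest probe set Dp(11)17/+ replicate 2 alone lay 0.30 above the +/+ mean.

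Errfi1, a feedback inhibitor of the EGF receptor, had log2 signals of 7.43, 7.57 and 7.21 in Dp(11)17/+ mice, against 8.23, 7.498 and 7.82 in +/+ mice. The groups overlapped at Dp(11)17/+ replicate 2 and +/+ replicate 2. The log2 fold change was -0.44 (SE 0.19, 0.736-fold, limma unadjusted p = 0.0523, adjusted p = 0.994), with -0.18 at a dimmer probe set. It was lower in Dp(11)17/+ mice with each mouse left out, between -0.62 and -0.25, and by -0.28 in Dp(11)17/+ replicate 2 alone. Pdk4, a kinase that inhibits pyruvate dehydrogenase, was dim, with 4.81, 4.38 and 4.55 in Dp(11)17/+ mice and 4.93, 4.35 and 4.03 in +/+ mice. Its highest value was in +/+ replicate 1, as for Sgk1, and its log2 fold change of 0.14 (SE 0.23) turned to -0.060 without +/+ replicate 3.

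**Figure D4:**
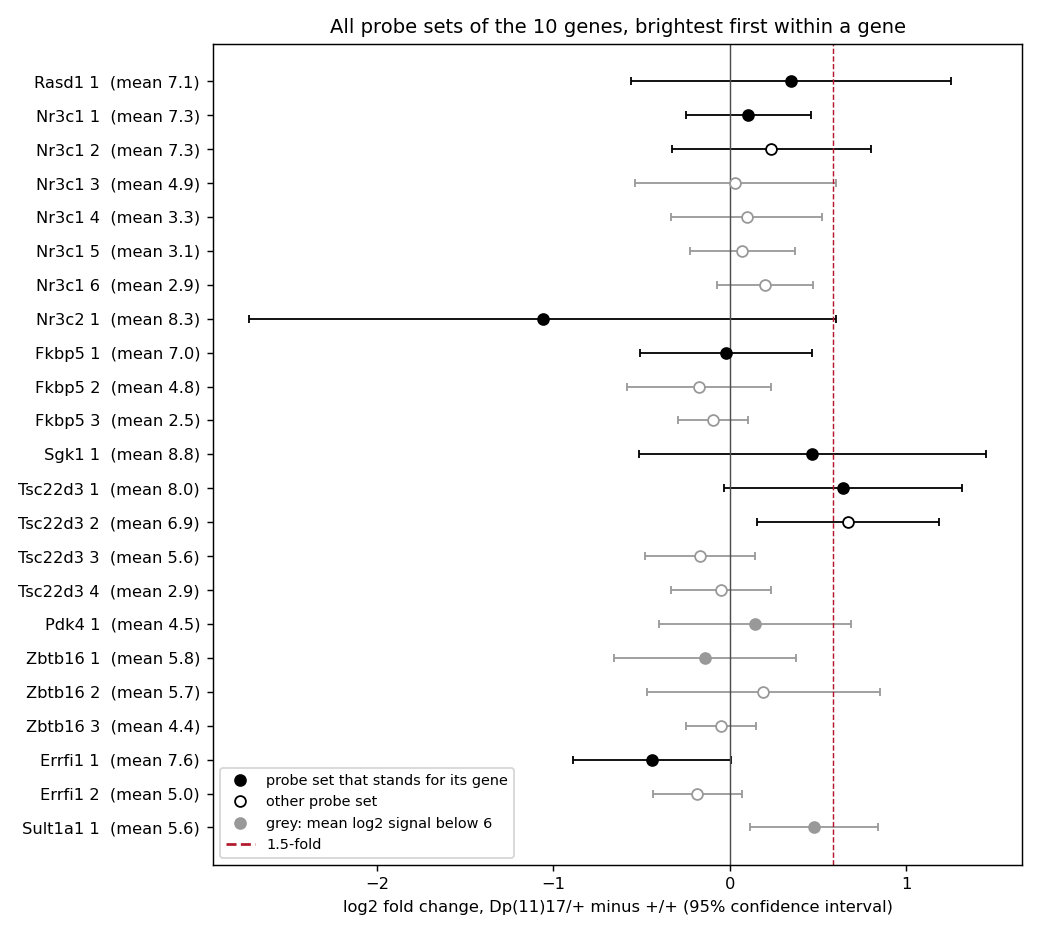
Log2 fold change, Dp(11)17/+ minus +/+, with its 95% confidence interval for all 23 probe sets of the 10 genes, brightest first within a gene and in grey where the mean log2 signal is below 6. The intervals of 2 probe sets, the second of Tsc22d3 (0.15 to 1.19) and that of Sult1a1 (0.12 to 0.84), lie above 0, and the probe sets of Tsc22d3 and Zbtb16 fall on both sides of 0.

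Rasd1 was then set against each other gene over the 6 mice. Pearson's r lay between -0.12 for Sult1a1 and 0.64 for Zbtb16, and Spearman's rho between -0.09 and 0.60. By exact permutation over 720 pairings, 0 of 9 had an unadjusted p under 0.05 (smallest p = 0.136 for Pearson's r and 0.242 for Spearman's rho), and the smallest p adjusted over the 9 was 0.936 for Pearson's r. With Sgk1, r was 0.06 over 6 mice and 0.99 over the 4 left without Dp(11)17/+ replicates 1 and 2, the mice farthest from the median of Rasd1. With Tsc22d3 r was 0.23 and 0.86, and with Pdk4 -0.07 and 0.89. With Nr3c2 it was 0.35 and -0.36, and with Fkbp5 0.54 and -0.25, so these relations rest on 1 or 2 mice. Taken as deviations from the mean of its genotype, Rasd1 gave r = 0.79 with Zbtb16, 0.62 with Nr3c2, 0.59 with Fkbp5, -0.08 with Sgk1 and -0.67 with Sult1a1. Mouse by mouse, Dp(11)17/+ replicate 2 stood 1.27 above the +/+ mean for Rasd1, 0.53 for Nr3c2 and 0.39 for Fkbp5, but 0.05 for Sgk1 and -0.055 for Pdk4. In +/+ replicate 1, Rasd1 was 0.29 above that mean, Sgk1 1.01, Tsc22d3 0.61, Pdk4 0.50 and Errfi1 0.38.

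Among the 36 pairs of the other 9 genes, a comparison added after the data were seen, 5 had an unadjusted exact permutation p under 0.05 and 0 an adjusted one. These were Sgk1 with Pdk4 (r = 0.91, rho = 0.94, exact p = 0.00972 and 0.0167), Sgk1 with Tsc22d3 (0.90 and 0.89, exact p = 0.0153 and 0.0333), Fkbp5 with Zbtb16 (0.88 and 0.94, exact p = 0.0125 and 0.0167), Nr3c2 with Fkbp5 (0.85 and 0.94, exact p = 0.0208 and 0.0167) and Nr3c2 with Zbtb16 (0.81 and 0.89, exact p = 0.0125 and 0.0333). Their adjusted p for Pearson's r lay between 0.138 and 0.15 and for Spearman's rho between 0.2 and 0.24. The pairs with Zbtb16 used its brightest probe set, and its second one was not correlated with the other genes. Without the pair of mice farthest from the median of the first gene, r was 0.84, 0.52, 0.69, 0.96 and 0.70 in the same order.

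Other genes induced by corticosteroids were taken from a list of 24, of which 23 were measured. Adjusted over all probe sets 0 of the 23 passed, and 3 had an unadjusted p under 0.05, all higher in Dp(11)17/+ mice, beside 1.15% of all genes in that direction. In all, 14 of the 23 were higher and 9 lower, with a median log2 fold change of 0.21. Over all genes 41.7% were higher, with a median of -0.02. Mertk, a receptor for the engulfment of dying cells that astrocytes and microglia carry, had log2 signals of 7.10, 6.85 and 6.79 in Dp(11)17/+ mice and 6.56, 6.19 and 6.15 in +/+ mice (log2 fold change 0.61, SE 0.14, limma unadjusted p = 0.00306). Mfsd2a, the lipid transporter of the blood-brain barrier, had 7.04, 6.67 and 6.96 in Dp(11)17/+ mice and 6.54, 6.26 and 6.10 in +/+ mice (0.59, SE 0.14). Gjb6, a connexin gene of astrocytes, had 8.52, 8.41 and 8.69 in Dp(11)17/+ mice and 8.27, 8.15 and 8.18 in +/+ mice (0.34, SE 0.10). In each of the 3 all Dp(11)17/+ mice lay above all +/+ mice, as in 4 of the 23 genes of the list and 2.7% of all genes. Dp(11)17/+ replicate 2 alone lay 0.55, 0.37 and 0.21 above the +/+ mean for Mertk, Mfsd2a and Gjb6. The unadjusted p stayed under 0.05 with each mouse left out. They are also genes of glia and vessels. The mean over 7 endothelial markers was 0.27, 0.14 and 0.33 above the +/+ mean in Dp(11)17/+ mice, against -0.03 to 0.04 in +/+ mice. Of these markers 6 of 7 were higher and 3 had a limma unadjusted p under 0.05, beside 41.7% and 3.17% of all genes. Means over 7 astrocyte markers were 0.13, 0.12 and 0.01 in Dp(11)17/+ mice and -0.07 to 0.06 in +/+ mice, and over 5 microglial markers 0.45, 0.11 and 0.10 in Dp(11)17/+ mice and -0.15 to 0.14 in +/+ mice. Of the microglial markers 5 of 5 were higher and 2, P2ry12 and Csf1r, had an unadjusted p under 0.05, beside the same shares of all genes. Their part in these values was not tested.

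Per1, a clock gene with a hormone response element, was high in the same 3 mice as Sgk1. It had log2 signals of 7.41, 6.63 and 7.27 in Dp(11)17/+ mice, against 7.48, 6.63 and 6.59 in +/+ mice, with a log2 fold change of 0.21 (SE 0.29). Dusp1, a MAP kinase phosphatase chosen after its values were seen, had 8.26, 6.71 and 8.997 in Dp(11)17/+ mice and 8.65, 6.98 and 6.75 in +/+ mice. For both genes the high mice were Dp(11)17/+ replicates 1 and 3 and +/+ replicate 1. Bcl6, a transcriptional repressor chosen in the same way, had the opposite order among Dp(11)17/+ mice, with 6.84, 8.04 and 6.31 in Dp(11)17/+ mice and 7.84, 7.54 and 7.54 in +/+ mice, an order close to that of Nr3c2. Klf9, a hormone-induced transcription factor likewise chosen, had a log2 fold change of 0.31 (SE 0.16) at its brightest probe set, with 11.4, 11.6 and 11.7 in Dp(11)17/+ mice and 11.6, 11.1 and 11.0 in +/+ mice.

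Of 12 chaperones and cofactors of the receptors, 8 were measured, 1 higher and 7 lower. The median log2 fold change was -0.06, and limma gave 0 at an unadjusted p under 0.05. Of all genes 41.7% were higher and 3.17% had such a p. Fkbp4, the immunophilin that competes with the Fkbp5 product on the receptor, had log2 signals of 6.99, 7.003 and 7.04 in Dp(11)17/+ mice, against 7.08, 7.28 and 7.11 in +/+ mice. All Dp(11)17/+ mice lay below all +/+ mice there, as did 5.59% of all genes, with a log2 fold change of -0.15 (SE 0.09, limma unadjusted p = 0.132). The cochaperone gene Stip1 gave -0.12 and the coactivator gene Ncoa2 0.10. Of 7 genes of steroid conversion and export, 6 were measured and 1, Abcb1a, had an unadjusted p under 0.05, beside 3.17% of all genes. It encodes P-glycoprotein, which exports steroids at the blood-brain barrier, and had 5.91, 5.85 and 6.04 in Dp(11)17/+ mice, against 5.68, 5.39 and 5.499 in +/+ mice (log2 fold change 0.41, SE 0.10, unadjusted p = 0.00523). All Dp(11)17/+ mice were above all +/+ mice, as in 2.7% of all genes, and as they were for endothelial markers on average. Dp(11)17/+ replicate 2 alone lay 0.33 above the +/+ mean. The mean of Abcb1a over the 6 arrays, 5.73, was below the level of 6 used here to call a probe set bright. Hsd11b1, which regenerates active corticosterone and was chosen after its values were seen, had 8.11, 9.34 and 8.49 in Dp(11)17/+ mice and 9.34, 8.63 and 8.80 in +/+ mice (-0.28, SE 0.33).

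Reported partners of Rasd1 and its paralog made a list of 11, all measured, with 5 higher and 6 lower. The median log2 fold change was -0.02, and limma gave 0 at an unadjusted p under 0.05. Of all genes 41.7% were higher and 3.17% had such a p. Nos1, the neuronal nitric oxide synthase that activates the Rasd1 protein, had log2 signals of 7.58, 7.12 and 6.16 in Dp(11)17/+ mice, against 7.12, 8.14 and 7.88 in +/+ mice (log2 fold change -0.76, SE 0.40, limma unadjusted p = 0.0963). The groups overlapped through Dp(11)17/+ replicate 1 and +/+ replicate 1, and the log2 fold change was -0.36 without Dp(11)17/+ replicate 3 and -0.59 for Dp(11)17/+ replicate 2 alone. Rasd2, the paralog enriched in striatum, had 7.16, 7.04 and 8.29 in Dp(11)17/+ mice, against 6.80, 7.19 and 7.04 in +/+ mice (0.49, SE 0.32). Its high value was in Dp(11)17/+ replicate 3, the mouse with the highest striatal markers, and the log2 fold change was 0.09 without that mouse and 0.034 for Dp(11)17/+ replicate 2 alone. Slc11a2, an iron transporter linked to Rasd1 through Acbd3, gave -0.13 (SE 0.10), and Acbd3, named after its value was seen, gave -0.04.

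Without Dp(11)17/+ replicate 1, the mouse with high Xist, the log2 fold changes not yet given were 0.26 for Nr3c1, -1.08 for Nr3c2, 0.39 for Sgk1 and -0.45 for Errfi1. Those of Fkbp5, Pdk4 and Zbtb16 were -0.031, 0.028 and -0.075. All had the sign they had with 6 mice.

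**Figure D5:**
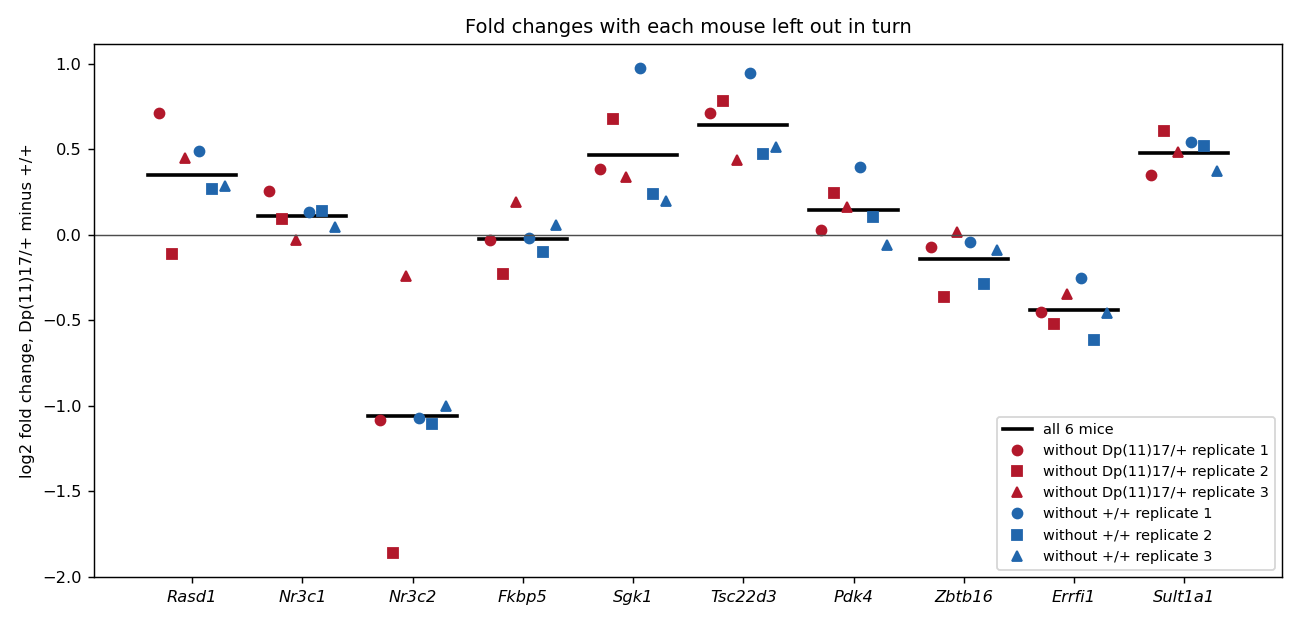
Log2 fold change of the 10 genes, Dp(11)17/+ minus +/+, in the limma fit of all 6 mice (black bar) and with each mouse left out (red, a Dp(11)17/+ mouse left out; blue, a +/+ mouse left out; shape, its replicate number). Rasd1 turns to -0.11 without Dp(11)17/+ replicate 2, Nr3c2 spans -1.86 to -0.24, Sgk1 0.19 to 0.97 and Sult1a1 0.35 to 0.61.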

How the data were processed

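Gene expression was measured on Affymetrix arrays in hippocampus of 3 Dp(11)17/+ and 3 +/+ mice. The authors deposited 1 log2 value for each probe set and array, made with RMA, per the submitters' processing notes. RMA corrects background, equalises the distributions of arrays and summarises probes. Its version was not stated. Values ran from 2.14 to 13.2, with array medians of 3.74 to 3.79, and were used as deposited, without a pseudocount. After 64 control probe sets were left out, 45037 were tested, of which 34945 had 1 gene symbol, 932 several and 9160 none. Symbols, chromosomes and gene order came from the GRCm38.p6 gene table through Entrez identifiers, with 204 of the 34945 probe sets not matched. The arrays name no genome build, so no coordinates of genes are given.

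Dp(11)17/+ was compared with +/+ by limma 3.58.1 in R 4.3.3 (lmFit, eBayes without trend, 7.11 degrees of freedom, two-sided), with Benjamini-Hochberg adjustment over all probe sets and a threshold of 0.05. The number of arrays limits the precision. The limma p-values set each difference against the spread between these mice, drawn towards a common value estimated from all probe sets (3.11 of the 7.11 degrees of freedom). For widely varying genes this makes the SE smaller than in the plain statistic, as for Nr3c2 (0.70 against 0.94). Differences between genes within an array and correlations over the 6 mice were tested by exact permutation. The fit was tested on simulated data. The members, gene lists, tests and alternatives were chosen with earlier results of these data known. Named were the 10 members, the list genes with an unadjusted p under 0.05 or else the 3 with the smallest p, Rasd2 and Per1 (also Ncor1, not analysed here), Med9, Pemt, Rai1 and Nt5m, and the 5 genes most correlated with Rasd1 and with Nr3c2. Alternatives left out dim probe sets or each mouse, normalized again by quantiles, centred medians, weighted arrays, let the prior follow intensity, used an unmoderated statistic, took other probe sets for a gene, or set floors of 5 and 7 in place of 6.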

Additional observations from a re-analysis of the deposited data

How the results depend on the processing

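Of the 10 genes, 0 passed after adjustment over all probe sets in any limma, plain or gene-mean fit. Leaving out 1 mouse at a time, the log2 fold change of Rasd1 lay between -0.11 and 0.71, and it was -0.11 without Dp(11)17/+ replicate 2, 1.27 with that mouse alone against +/+, and 0.060 with array weights. The count of genes at an unadjusted p under 0.05 was 1 in the fit of all mice, 0 with dim probe sets left out (where Sult1a1 is not tested) and with the plain statistic, 2 with centred medians and with an intensity trend, and 0 to 4 with each mouse left out. Over all probe sets that count was 1272, against 300 with dim ones left out, 2765 without Dp(11)17/+ replicate 2 and 2620 without +/+ replicate 1. After adjustment it was 0, against 1 with an intensity trend and 1 with array weights.

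The difference of Rasd1 from the other duplicated genes, -0.10, lay between -0.57 and 0.24 with each mouse left out. It was 0.24, 0.019 and 0.046 without Dp(11)17/+ replicate 1, Dp(11)17/+ replicate 3 and +/+ replicate 1, and 0.83 with Dp(11)17/+ replicate 2 alone. That of Nr3c2 from Nr3c1 lay between -1.95 and -0.21 with each mouse left out and was 0.40 with Dp(11)17/+ replicate 2 alone. Nr3c1 turned to -0.0045 with array weights, and lay between -0.032, without Dp(11)17/+ replicate 3, and 0.26. Fkbp5 lay between -0.23 and 0.19 and turned to 0.19 and 0.054 without replicate 3 of Dp(11)17/+ and of +/+, Pdk4 to -0.060 without +/+ replicate 3, and Zbtb16 to 0.017 without Dp(11)17/+ replicate 3, 0.00064 as the mean of its probe sets and 0.19 at its probe set of the highest variance. With Dp(11)17/+ replicate 2 alone, Nr3c2 was 0.53, Fkbp5 0.39, Pdk4 -0.055 and Zbtb16 0.30. Without Dp(11)17/+ replicates 1 and 2, r with Rasd1 turned for Nr3c2 (-0.36), Fkbp5 (-0.25), Pdk4 (0.89) and Sult1a1 (0.57), and as deviations from the genotype mean for Sgk1 (-0.076). The cause was not tested. No paired analysis was possible because the labels give the mice no numbers shared between genotypes.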
